A study of Arabidopsis thaliana with 4 samples.

Results

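This comparison set both narciclasine libraries against both control libraries, with the exposure times of 2 h and 12 h pooled. Genes were taken by 1 rule: both narciclasine values had to lie above both control values, or below them. Of 33602 genes in the deposited table, 19370 reached 1 RPKM (reads scaled to the length of the gene and to the size of the library) in at least 1 library and were tested. Of these, 8616 met the rule, 4943 on the higher side and 3673 on the lower side. Levels are RPKM, and differences are narciclasine minus control means of log2(RPKM + 1), which understates the change of genes at a low level.

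All plants were wild-type Arabidopsis thaliana of the Col-0 accession, grown for 5 days as seedlings and then placed on fresh medium for 2 or 12 h. The control side held 1 library at 2 h and 1 at 12 h, both without the alkaloid. The narciclasine side held the matching pair, on medium with 0.5 µM of the compound. RNA came from the cut terminal 3 mm of roots, and nothing in the labels says that the libraries came from separate cultures.

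Narciclasine is an alkaloid of daffodils and their relatives that slows protein synthesis by binding the ribosome. In plant cells a disturbed mitochondrion signals to the nucleus through transcription factors of the NAC family, which are held in the endoplasmic reticulum membrane until released. They bind a short DNA element, the mitochondrial dysfunction motif, and raise alternative respiratory enzymes. Foreign compounds are handled by another set of proteins that oxidise them, attach glutathione, sugar or sulfate, and pump the products out of the cytosol.

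Library sizes, recovered from the RPKM values, ran from 11880278 to 14724075 reads. Because the times were pooled, the spread within a side holds the difference between 2 h and 12 h as well as that between libraries. The median absolute difference per gene between the control times was 0.25 on the log2 scale, and between the narciclasine times it was 0.45. Narciclasine and control differed by a median of 0.24 at 2 h and of 0.51 at 12 h. The median of the signed difference over all genes tested was 0.02. An exact permutation test of 2 libraries against 2 cannot give a two-sided p below 0.333, so single genes were tested only in a limma fit across all genes. In such whole-tip samples, fewer cells of a type and less RNA per cell cannot be told apart. Markers of the root cap (SMB, BRN1, BRN2 and FEZ) and of the meristem (PLT1, SCR and SHR among 13) were detected in all 4 libraries, as the label of a root tip implies.

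Most of the 8616 genes met the rule by a narrow margin, and a small group stood far apart. The higher side held 25.5% of the genes tested and the lower side 19%. If the values of a gene fell in random order, it would meet the rule, in either direction, with a probability of 0.333. Meeting the rule alone is therefore weak evidence for any single gene. The gap, which is the distance between the nearest values of the sides on the RPKM + 1 scale, had a median of 1.16-fold among the higher genes and 1.12-fold among the lower ones. It was under 1.5-fold in 4304 of the higher and 3433 of the lower genes. With libraries rescaled by trimmed means the counts were 4233 higher and 4487 lower, so the balance between the directions of these narrow gaps depended on the scaling. A gap of at least 2-fold was found in 199 genes on the higher side, 1.03% of those tested, and in 36 on the lower side, 0.186%. Both other scalings gave more higher than lower genes with a wide gap, at 179 against 45 and 182 against 44. Without the narciclasine 2 h library the order turned, at 1225 higher against 1706 lower.

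Among the 199 genes with a wide gap on the higher side, 196 were protein coding and 111 of these carried no symbol in the annotation. Their median difference was 2.07 and their median gap 2.77-fold, and the gap reached 4-fold in 57 and 8-fold in 23. The narciclasine value was greater at 12 h than at 2 h in 122 of them, by 2-fold or more in 56, whereas 6 were at least 2-fold greater at 2 h. The 36 lower genes had a median difference of -1.64 and a median gap of 2.19-fold, and the widest gap was 3.04-fold. There the value at 2 h was at least 2-fold above that at 12 h in 11 genes, and 4 genes were listed at 0 in both narciclasine libraries. The control libraries stayed within 2-fold of each other in 165 of the 199 and in 33 of the 36. Low levels limit some of these gaps: 28 of the higher genes had under 10 reads in both controls, and 9 of the lower genes in both narciclasine libraries.

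**Figure D1:**
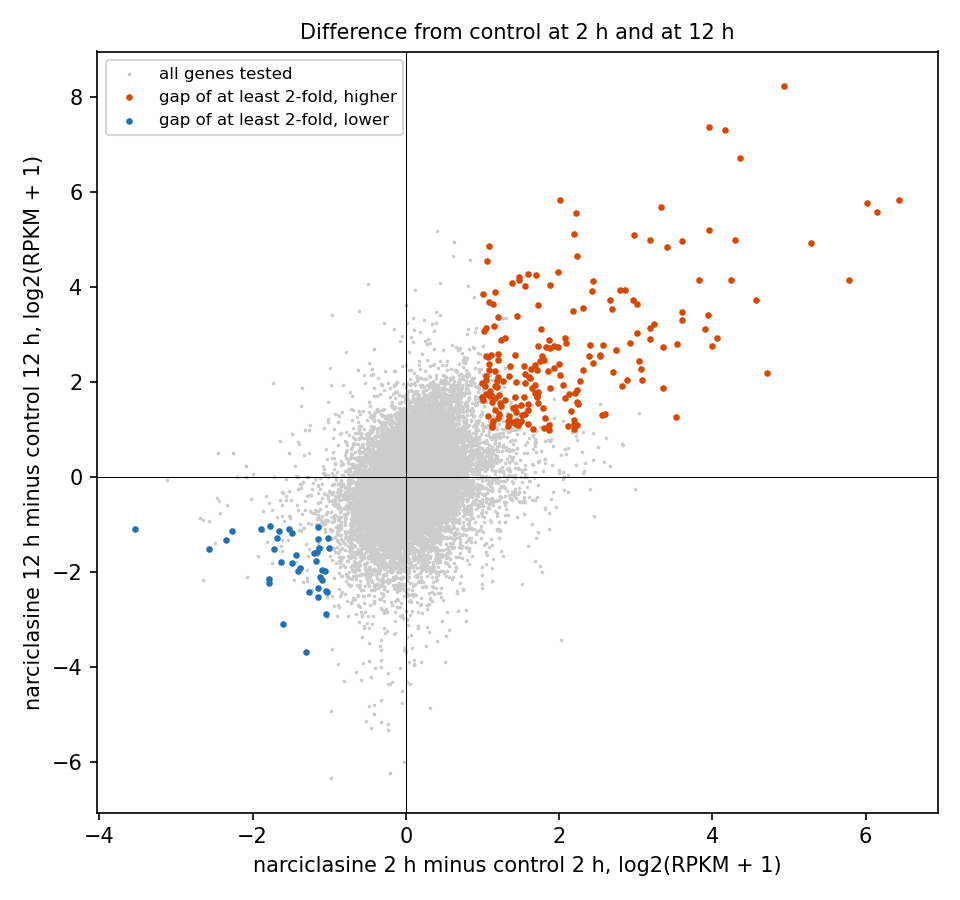
Each point is a gene, with its narciclasine minus control difference in log2(RPKM + 1) at 2 h on the horizontal axis and at 12 h on the vertical axis. The 199 genes with a gap of at least 2-fold on the higher side (orange) reach much farther from 0 than the 36 on the lower side (blue).

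At an adjusted p of at most 0.05 in limma (Benjamini-Hochberg over 19370 genes), 3 genes were higher in narciclasine, 0.0155% of those tested, and 0 were lower, 0%. At an unadjusted p under 0.05 the same fit held 1515 of the 19370 genes, a count not corrected for the number of genes tested. With the exposure time as a term, which pairs each narciclasine library with the control of its time, limma called 47 genes higher, 0.243%, and 1 lower, 0.00516%. All 3 genes of the first fit were among the 47, and 47 of these 48 genes had a gap of at least 2-fold. The fit with time has 1 residual degree of freedom and the fit without it 2, so both rest heavily on the spread shared across genes. Single libraries weighed on these counts. Without the narciclasine 2 h library limma called 623 genes higher and 1002 lower, without the narciclasine 12 h library 28 and 0, and without either control library 0 and 0.

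The 3 genes called without the time term were near silent in both controls and abundant in both narciclasine libraries. They are named because they are the whole of that count. The annotation has only locus codes for them and calls each an uncharacterized protein. AT5G24640 stood at 1.84 and 1.73 RPKM in control 2 h and 12 h and at 245 and 155 RPKM in narciclasine 2 h and 12 h. Its difference was 6.14 ± 0.31 (SE, 2 libraries a side; limma adjusted p = 0.0215). For AT4G12735 the controls held 1.33 and 1.14 RPKM and the narciclasine libraries 150 and 115, a difference of 5.89 ± 0.27 (limma adjusted p = 0.0194). The third, AT2G38823, had 2.96 and 3.81 RPKM against 280 and 229, a difference of 5.87 ± 0.27 (limma adjusted p = 0.0194). In each of them the sides were about 50 times apart, with gaps of 55.1-fold, 49.9-fold and 47.9-fold, and each narciclasine value was somewhat lower at 12 h than at 2 h.

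All 3 promoters hold the mitochondrial dysfunction motif. It was searched as CTTGNNNNNCAAG and CTTGNNNNNCACG on both strands, from 250 bases before to 50 after the annotated start of each gene, in RefSeq's TAIR10.1 sequence. The stretches below are shown because they carry that motif, in capitals, before the start of genes with a wide gap on the higher side. Each is written 5′ to 3′ on the strand of its gene.
AT5G24640, chr5:8436257-8436299, plus strand: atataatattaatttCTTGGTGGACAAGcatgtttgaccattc
AT2G38823, chr2:16223903-16223945, plus strand: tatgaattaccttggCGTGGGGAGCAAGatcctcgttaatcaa
AT2G04050, chr2:1339597-1339698, minus strand: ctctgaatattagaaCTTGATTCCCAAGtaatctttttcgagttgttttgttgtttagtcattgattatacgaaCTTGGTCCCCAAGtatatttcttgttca
AT2G21640, chr2:9254312-9254354, plus strand: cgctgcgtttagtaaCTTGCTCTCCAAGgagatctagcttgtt
AT2G18193, chr2:7919408-7919450, minus strand: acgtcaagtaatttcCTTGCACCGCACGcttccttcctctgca
NAC044, chr3:228995-229037, plus strand: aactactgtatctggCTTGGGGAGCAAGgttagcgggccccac
NDA1, chr1:2204019-2204061, plus strand: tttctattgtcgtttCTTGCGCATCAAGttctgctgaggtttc
NDB2, chr4:2572333-2572375, plus strand: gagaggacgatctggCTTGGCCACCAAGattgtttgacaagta
ABCB11, chr1:523434-523476, plus strand: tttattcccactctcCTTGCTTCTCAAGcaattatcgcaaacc
AT2G04050, which encodes a MATE efflux protein, has a pair of matches, and AT2G38823 has its match on the other strand. The stretch of AT4G12735 lies within a neighbouring gene and is not shown.

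The motif was found in 40 of the 196 coding genes with a wide gap on the higher side, or 20.4% (exact 95% binomial interval 15 to 26.7), and in 217 of all 18825 coding genes tested, 1.15%. None of the 29 coding genes with a wide gap on the lower side held it (upper bound 11.9%). The share followed the size of the gap. It was 43.5% in genes with a gap of at least 8-fold, 39.4% between 4-fold and 8-fold and 12.1% between 2-fold and 4-fold. Among higher genes with a gap under 2-fold it was 1.12%, close to the 0.928% of genes whose sides overlapped. Of the 217 genes with the motif, 92 met the rule on the higher side, 28 on the lower side and 97 not at all, so most copies lay outside the genes with a wide gap. Leaving out 1 library brought the share of 20.4% down to between 5.27% (without narciclasine 2 h) and 13% (without control 12 h), with 10.3% without control 2 h and 10.9% without narciclasine 12 h, as the number of genes with a wide gap grew. The windows of the 40 genes did not overlap one another, and in 31 of them a match lay wholly before the gene start. A match describes the letters of the window and is not a measured binding site.

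Other motifs showed smaller departures from the background. TGACG, a core of sites for TGA factors, was in 30.1% of the promoters with a wide gap on the higher side (interval 23.8 to 37) and in 23.7% of all. GAANNTTC, part of heat shock elements, was in 16.3% (interval 11.4 to 22.3) against 11.4%. For AACGG the share on the higher side was 23.5%, against 26.2% of all promoters. CACGTG was in 8.67% against 8.76%. The share of AACCCTA was 6.12% against 7.8%. On the lower side the 29 promoters are too few to separate any of these from the background: TGACG was in 24.1% (interval 10.3 to 43.5) and CACGTG in 17.2% (interval 5.85 to 35.8).

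**Figure D2:**
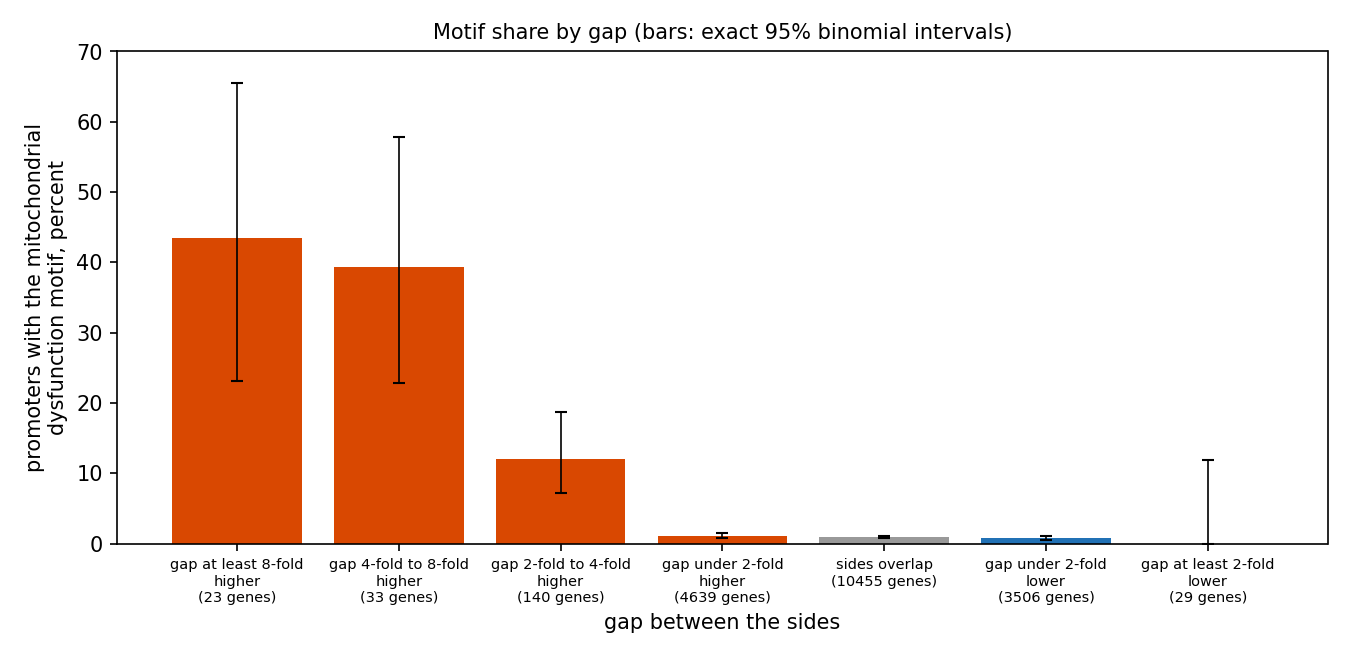
Bars give the percent of promoters with the mitochondrial dysfunction motif, by the size and direction of the gap between the sides, with exact 95% binomial intervals and the number of genes under each bar. The share is 43.5% for gaps of at least 8-fold on the higher side and near 1% wherever the gap is under 2-fold.

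Several transcription factors were among the protein-coding genes with the widest gaps on the higher side. NAC13 (AT1G32870), one of the membrane-held NAC factors that bind the motif, stood at 7.42 and 6.56 RPKM in control 2 h and 12 h and at 101 and 83 RPKM in narciclasine 2 h and 12 h. Its difference was 3.54 ± 0.26 (limma adjusted p = 0.0623, and 0.0134 with time as a term), with both narciclasine values about equal. The span of NAC13 overlaps that of AT1G32880, so reads may be shared between them. That neighbour was far lower, at 0.249 and 0.305 RPKM in the controls and 2.54 and 2.71 in narciclasine. NAC017, a relative of NAC13 known as a main relay of mitochondrial stress, differed far less, and its sides overlapped. It had 33.1 and 41.1 RPKM in the controls and 38.8 and 46.9 in narciclasine.

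NAC044 (AT3G01600), a NAC factor known from the arrest of the cell cycle after DNA damage, had 0.474 and 0.708 RPKM in the controls and 19.8 and 29 RPKM in narciclasine. Its difference was 3.98 ± 0.32 (limma adjusted p = 0.0731, 0.0134 with time), and the controls rest on 9 and 11 reads. CRF6 (AT3G61630), a cytokinin response factor linked to oxidative stress, had 3.98 and 5.37 RPKM against 44.5 and 55.3, a difference of 3.17 ± 0.28 (limma adjusted p = 0.103, 0.0188 with time). Both genes kept close values at 2 h and 12 h on each side. DREB2C (AT2G40340), a drought and heat response factor, was at 4.77 and 4.14 RPKM in the controls and at 45.8 and 62.9 in narciclasine (3.33 ± 0.28, limma adjusted p = 0.0891, 0.0193 with time).

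HRE2 (AT2G47520), a factor of the response to low oxygen, was highest early. It had 5.03 and 1.85 RPKM in the controls, 114 in narciclasine 2 h and 49.9 in narciclasine 12 h. The difference was 4.21 ± 0.54 (limma adjusted p = 0.188, 0.00755 with time), and since the control at 12 h was also lower, the differences at each time were nearly equal, 4.25 and 4.16. Of the 8 tested hypoxia genes 5 were higher without overlap, 62.5% against 25.5% of all genes, 0 were lower, and 1 passed limma with time. The list median was 1.14, and fermentation enzyme PDC1 stood at 45.2 and 30.2 RPKM in the controls and 79.1 and 136 in narciclasine. The fermentation enzyme ADH1, at 18 and 2.31 RPKM in the controls and 8.78 and 34.4 in narciclasine, had overlapping sides.

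Alternative respiratory enzymes and other genes of mitochondrial signalling were mostly higher. On the list of mitochondrial retrograde genes, 12 of the 16 tested were higher without overlap, against 25.5% of all genes, and 0 were lower. A wide gap was present in 9, beside 1.03% of all genes, and limma with time called 6 higher, beside 0.243%. The list median was 2.37 against 0.02 for all genes. This list, like the others here, was chosen with earlier results of these data known, so its shares describe and do not test. NDB4 (AT2G20800), an NAD(P)H dehydrogenase on the outer face of the inner membrane, had 0.19 and 0.0465 RPKM in the controls, from 5 reads and 1 read, and 23.4 and 108 RPKM in narciclasine. Its difference was 5.53 ± 0.71 (limma adjusted p = 0.187, 0.0229 with time), with a higher value at 12 h.

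BCS1 (AT3G50930), an ATPase of the outer mitochondrial membrane, stood at 13.8 and 23.3 RPKM in the controls and at 220 and 210 in narciclasine. The difference was 3.51 ± 0.33 (limma adjusted p = 0.113, 0.0188 with time), and the narciclasine values were nearly the same at both times. AOX1A, the alternative oxidase that lets electrons bypass the later complexes, had 61 and 81.1 RPKM in the controls and 509 and 449 in narciclasine (2.75, limma adjusted p = 0.114, 0.0366 with time). The internal dehydrogenase NDA1 had 0.308 and 0.424 RPKM against 6.09 and 23.9. NDB2, an external dehydrogenase, had 106 and 80.6 RPKM against 215 and 250, which put it just past the 2-fold gap. AT2G21640, which the annotation calls a marker for oxidative stress response protein, had 4.75 and 5.65 RPKM against 88 and 246 (4.58 ± 0.51, limma adjusted p = 0.136, 0.0134 with time). Not every gene of the list stood apart: NDA2 (15.3 and 9.58 RPKM against 19 and 11.2) and the carrier DIC2 (32.5 and 118 against 49.7 and 71.6) overlapped. In this list 8 of 16 promoters held the mitochondrial dysfunction motif, or 50% (exact interval 24.7 to 75.3). The list was chosen partly from genes known to carry it.

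**Figure D3:**
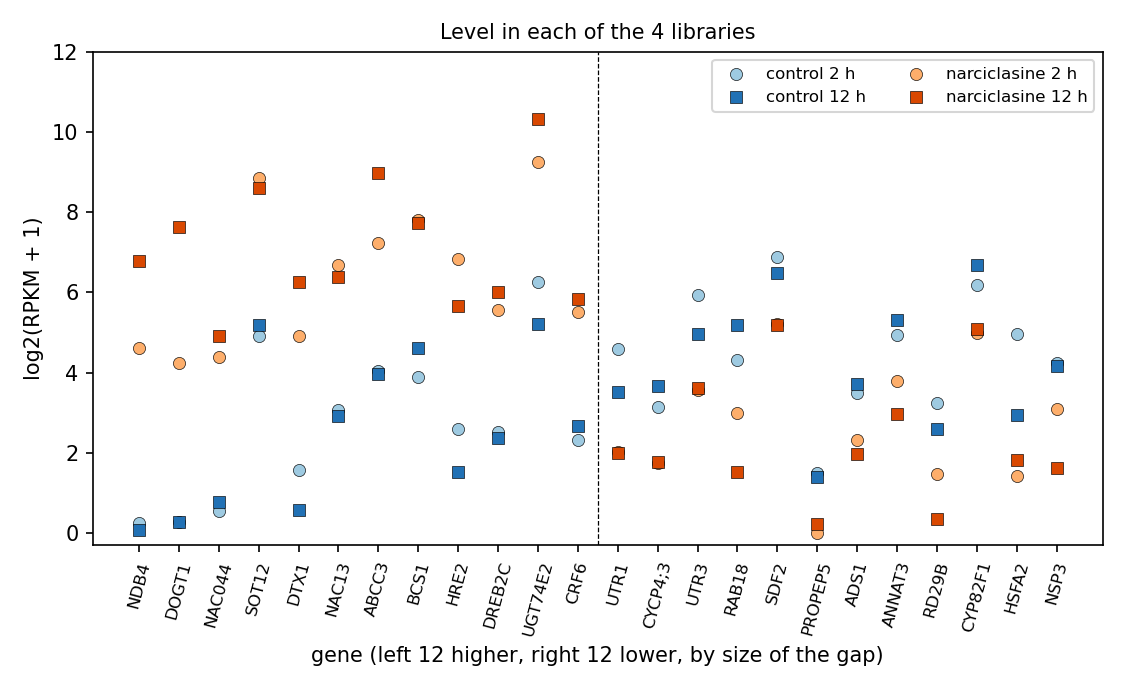
The level in log2(RPKM + 1) of the 24 protein-coding genes with a symbol and the widest gaps, 12 higher and 12 lower in narciclasine, with 1 point per library. The sides are at least 7.14-fold apart in the 12 higher genes and at most 2.79-fold apart in the 12 lower ones.

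The detoxification genes were higher from the modifying enzymes to the pumps. Of 27 tested, 23 were higher without overlap, 85.2% against 25.5% of all genes, and 0 lower. Both other scalings left 20 higher. A wide gap was present in 13, beside 1.03% of all genes, and limma with time called 8 higher, beside 0.243%. The list median was 1.40. These members too were chosen with earlier results of these data known, so the shares are a description only. Among enzymes that add groups, the sulfotransferase SOT12 (AT2G03760) stood at 29.2 and 35.3 RPKM in control 2 h and 12 h and at 461 and 384 in narciclasine. Its difference was 3.67 ± 0.27 (limma adjusted p = 0.0623, 0.014 with time). UGT74E2 (AT1G05680), a glycosyltransferase of the auxin indole-3-butyric acid, had 75.3 and 36.3 RPKM against 602 and 1267 (4.03 ± 0.52, limma adjusted p = 0.187, 0.0434 with time). DOGT1 (AT2G36800), a glucosyltransferase of a fungal toxin that itself acts on ribosomes, had 0.21 and 0.206 RPKM, from 5 and 4 reads, against 17.7 and 197. Its difference was 5.66 ± 1.07 (limma adjusted p = 0.48, 0.0463 with time). SOT12 was level across the times, whereas DOGT1 was far higher at 12 h. The related UGT73C1 and UGT73C6, from the same gene family, stayed below 1 RPKM throughout.

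The glutathione transferases, which attach glutathione to reactive compounds, spanned a wide range of levels. GSTU12 had 1.92 and 0.723 RPKM in the controls and 17.6 and 21.7 in narciclasine, and its neighbour GSTU11 2.3 and 1.12 against 13.9 and 22.9. The abundant GSTU25 stood at 1039 and 801 RPKM against 2181 and 4590. GSTU19, the most abundant of the list in the controls, moved little, with 1540 and 1671 RPKM against 1847 and 1930. CYP81D8, a cytochrome P450, was higher early, at 3.85 and 10.4 RPKM in the controls and 126 and 51 in narciclasine. CYP81D11 of the same subfamily, at 173 and 208 RPKM in the controls and 244 and 121 in narciclasine, overlapped.

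Export proteins were among the widest gaps of all. ABCC3 (AT3G13080), a vacuolar pump of glutathione conjugates, had 15.6 and 14.7 RPKM in the controls and 149 and 496 in narciclasine (4.08 ± 0.58, limma adjusted p = 0.218, 0.027 with time). DTX1 (AT2G04040), a MATE transporter shown to export alkaloids and cadmium, had 1.96 and 0.491 RPKM against 28.9 and 75.4 (4.51 ± 0.57, limma adjusted p = 0.182, 0.0374 with time). The list holds 2 more MATE genes nearby, AT2G04050 next to DTX1 and AT2G04070 farther along. AT2G04050 had 0.0481 and 0.235 RPKM, 1 and 4 reads, in the controls and 31.2 and 369 in narciclasine. AT2G04070 was listed at 0 in both controls and at 9.6 and 27.8 RPKM in narciclasine. No source used here says how reads were divided among these similar genes, and the split between them is uncertain. Over the whole MATE family, 13 of 40 tested genes were higher and 2 lower, 32.5% against the background of 25.5%, and only these 3 had a wide gap.

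Cell cycle lists are read against the 25.5% of all genes that were higher and the 19% that were lower. Of 15 tested CDK inhibitors and related NAC factors, which hold back division, 7 were higher without overlap, 46.7%, and 0 lower, with a list median of 0.37. SMR4, an inhibitor of the SIAMESE-related family, had 4.85 and 5.17 RPKM in the controls and 19.3 and 33 in narciclasine (2.13 ± 0.34, limma adjusted p = 0.285, 0.0956 with time). KRP6 had 15.6 and 15.5 RPKM against 26.5 and 30. Of 22 G2/M genes, the cyclins, kinases and motors of mitosis, 8 were lower, 36.4%, and 0 higher. Their list median was -0.80, and it differed between the times: it was -0.06 at 2 h and -1.67 at 12 h. CDC20.1, an activator of the anaphase complex, shows the shape, with 13.1 and 12.8 RPKM in the controls, 10.6 in narciclasine 2 h and 1.69 in narciclasine 12 h. Without the narciclasine 12 h library the list median was 0.04. Of 14 DNA replication genes 1 was higher, 7.14%, and 0 lower.

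Ribosome biogenesis was the single list in which every tested gene met the rule on the higher side, 12 of 12. The share among all genes was 25.5%. The gaps were narrow, with none at 2-fold and none called by limma, and the list median was 0.84 (0.32 at 2 h and 1.42 at 12 h). Rescaling by trimmed means or by median ratios also left 12 of 12 higher. SWA1, a nucleolar factor of rRNA processing, had 19.4 and 11.7 RPKM in the controls and 36.8 and 49.4 in narciclasine (1.44 ± 0.34, limma adjusted p = 0.634, 0.344 with time). The pumilio protein APUM24, which acts in rRNA processing, had 20.1 and 15.6 RPKM against 31.8 and 55.9. Fibrillarin FIB1, an RNA methyltransferase of the nucleolus, had 147 and 104 RPKM against 187 and 380. The 12 ribosomal protein genes, in contrast to the assembly factors, gave 0 higher and 1 lower, with a median of -0.01. The lower share was 8.33%, against 19% of all genes. RPS13A, the lower one, held 370 and 277 RPKM against 276 and 274, so its sides nearly touched.

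In 8 of the 12 ribosome biogenesis promoters the window held AACCCTA on either strand, an element known as the telo box, or 66.7% (exact interval 34.9 to 90.1) against 7.8% of all promoters. These stretches show it in capitals before the start of 3 of them.
FIB1, chr5:21293926-21293962, plus strand: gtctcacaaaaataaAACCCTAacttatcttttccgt
NOP56, chr1:20986953-20986983, minus strand: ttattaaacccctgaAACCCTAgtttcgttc
AT5G27120, chr5:9540803-9540839, plus strand: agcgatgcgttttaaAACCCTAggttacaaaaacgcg
The element is a known feature of this gene class, so the share describes the list rather than the response.

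Aminoacyl-tRNA synthetases, which load amino acids onto tRNA, were higher in 25 of 51 tested genes, 49% against 25.5% of all genes. They were lower in 7, 13.7% against 19%. Rescaling by trimmed means gave 20 and 8, with 4233 higher and 4487 lower among all 19370 genes. The leading one, EMB1030 (AT5G22800), an alanyl-tRNA synthetase, had 1.55 and 2.2 RPKM in the controls, 9.25 in narciclasine 2 h and 181 in narciclasine 12 h. Its difference was 3.92 ± 1.29 (limma adjusted p = 0.634, 0.242 with time), and most of it came from 12 h. AT1G17960, a threonyl-tRNA synthetase, had 1.54 and 2.31 RPKM against 7.22 and 62.5. The remaining 49 tested genes of the list had no wide gap.

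The widest gap on the lower side belonged to AT4G16270, which the annotation places in the peroxidase superfamily, with 9.27 and 10.3 RPKM in the controls and 2.38 and 0.345 in narciclasine. Chaperones and transporters of the endoplasmic reticulum were mostly lower. Of 15 genes of the unfolded protein response, which corrects protein folding in that compartment, 11 were lower without overlap, 73.3% against 19% of all genes. A wide gap on the lower side was present in 3, beside 0.186% of all genes, and limma called none in either fit. The list median was -1.47, alike at 2 h (-1.51) and 12 h (-1.33). UTR1 (AT2G02810), a nucleotide sugar transporter of the compartment, had 23.1 and 10.4 RPKM in the controls and 3.07 and 2.97 in narciclasine (-2.04 ± 0.42, limma adjusted p = 0.56, 0.174 with time). Its relative UTR3 had 59.7 and 30 RPKM against 10.9 and 11.3 (-1.84 ± 0.38, limma adjusted p = 0.566, 0.196 with time). SDF2, a co-chaperone, had 117 and 87.8 RPKM against 35.7 and 35.2.

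The main chaperones followed at high levels. BIP2, the Hsp70 of the compartment, stood at 450 and 225 RPKM in the controls and at 145 and 82.3 in narciclasine. The lectin chaperone CNX1 had 398 and 232 RPKM against 130 and 92.4, and SHD, the Hsp90 of the compartment, 362 and 215 against 142 and 57.5. In each of these the control was also lower at 12 h than at 2 h. BZIP60 (AT1G42990), a transcription factor that activates the response, went the other way, with 39.4 and 45 RPKM in the controls and 179 and 121 in narciclasine (1.78 ± 0.30, limma adjusted p = 0.355, 0.165 with time). So did NAC103, at 0.332 and 0.305 RPKM against 0.635 and 4.71, but it reached 1 RPKM only in narciclasine 12 h.

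CACGTG, a core letter run of bZIP sites, was found in 9 of the 15 promoters of this list, or 60% (exact interval 32.3 to 83.7), against 8.76% of all. The stretches are shown because the element occurs both before lower genes and before BZIP60, the higher one.
UTR1, chr2:801460-801495, plus strand: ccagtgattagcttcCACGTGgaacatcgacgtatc
UTR3, chr1:4913180-4913215, minus strand: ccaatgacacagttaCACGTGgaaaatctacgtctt
SDF2, chr2:10684041-10684076, plus strand: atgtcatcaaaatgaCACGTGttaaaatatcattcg
BZIP60, chr1:16137596-16137631, minus strand: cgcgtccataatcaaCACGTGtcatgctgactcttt
Its presence therefore did not separate the directions within the list.

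**Figure D4:**
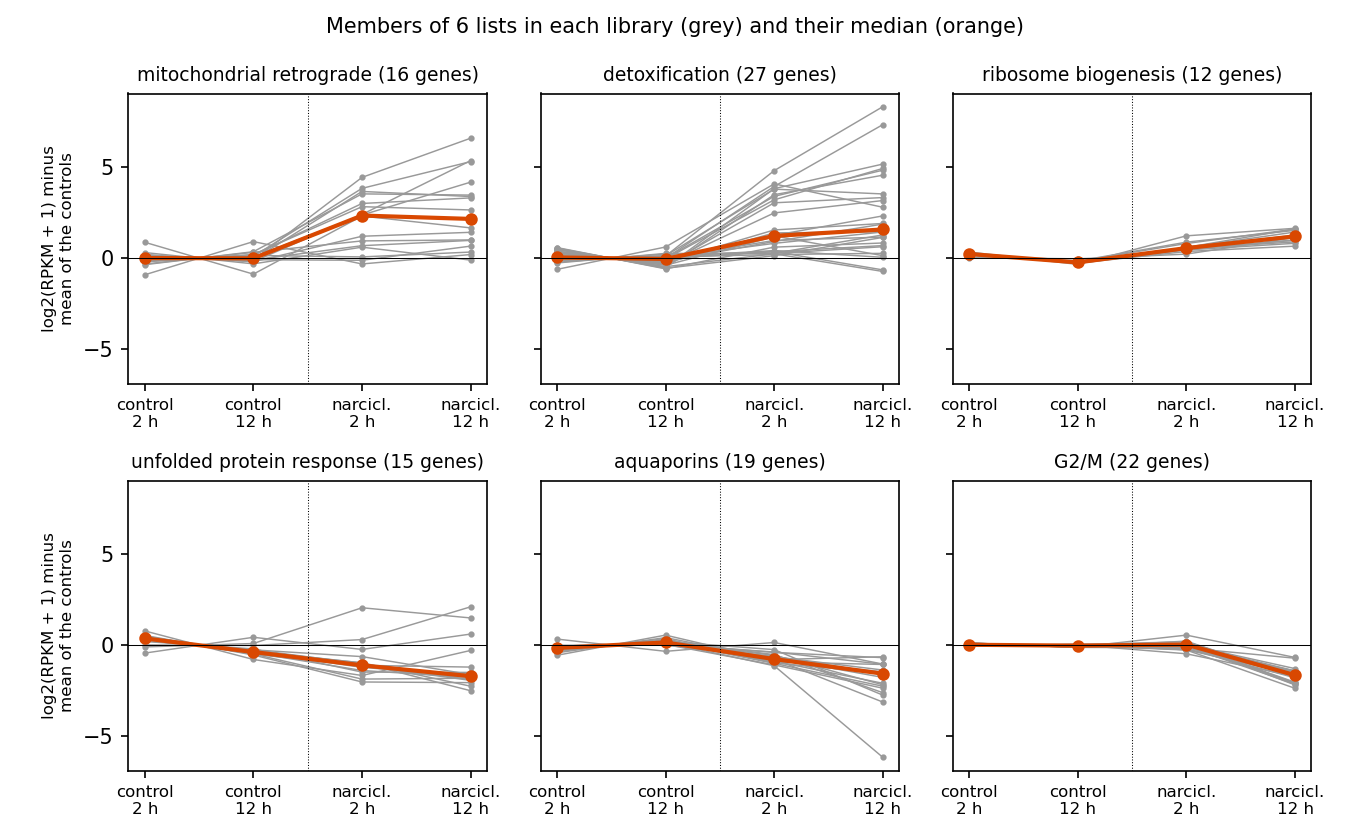
For 6 gene lists, each grey line follows 1 gene through the 4 libraries as log2(RPKM + 1) minus the mean of its controls, and the orange line is the median. In narciclasine the median of the unfolded protein response lies below 0 at both times, all 12 ribosome biogenesis genes lie above 0 at both, and the G2/M genes lie below 0 at 12 h.

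Heat shock genes of the cytosol were lower at 2 h more than at 12 h, with list medians of -1.29 and -0.17. The list summed to 1898 and 1034 RPKM in control 2 h and 12 h and to 1059 and 955 in narciclasine. Control 2 h was thus the high library, and HSC70-1 made up most of each sum. Of 15 tested, 7 were lower without overlap, 46.7% against 19% of all genes, and 1 was higher, 6.67% against 25.5%. Rescaling by trimmed means gave 10 and 1, while the lower genes among all tested also rose, from 3673 to 4487. HSFA2 (AT2G26150), a heat shock factor, stood at 30.1 and 6.64 RPKM in the controls and at 1.7 and 2.56 in narciclasine (-2.32 ± 0.68, limma adjusted p = 0.634, 0.332 with time). Its controls also lay far apart, with the 12 h library the lower one. ROF2, a co-chaperone, had 48 and 15.2 RPKM against 10.6 and 2.77. HSP101, a disaggregating chaperone, had 15.4 and 7.79 against 5.72 and 5.69. The abundant HSC70-1, at 1512 and 831 RPKM in the controls and 929 and 801 in narciclasine, had overlapping sides.

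Genes induced by abscisic acid, the hormone of drought and dormancy, were lower in 15 of 25, 60% against 19% of all genes. Of these 25 genes 0 were higher, against 25.5% of all, and the list median was -0.83. LEA7 (AT1G52690), a protective protein of drying cells, was the one gene called lower by limma with time. Its values were lower at 12 h than at 2 h on both sides: 102 and 20.7 RPKM in control 2 h and 12 h, and 15.4 and 3.82 in narciclasine. The difference was -2.41 (limma adjusted p with time 0.0463) although the sides were 1.33-fold apart. RAB18, a dehydrin, had 18.7 and 35.5 RPKM against 7 and 1.87 (-2.49 ± 0.58, limma adjusted p = 0.634, 0.272 with time), and RD29B 8.51 and 5.01 against 1.78 and 0.287. NCED3, the rate-limiting enzyme of abscisic acid synthesis, had 6.69 and 23 RPKM against 1.79 and 4.35. The transcription factors ABF3 and ABF4 of this pathway overlapped.

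Aquaporins, the water channels of plasma and vacuole membranes, gave the most complete lower list. Of 19 tested, 18 were lower without overlap, or 94.7% against 19% of all genes, and 0 were higher; both other scalings also gave 18. The list median was -1.23, with -0.55 at 2 h and -1.93 at 12 h, and the gap reached 2-fold in 1 gene, and in 2 under either other scaling. PIP2;3 was that gene, with 105 and 111 RPKM in the controls and 50.4 and 20.1 in narciclasine (-1.72 ± 0.46, limma adjusted p = 0.634, 0.284 with time). It has a near-identical neighbour in PIP2;2, which had 795 and 1194 RPKM against 514 and 466. The abundant vacuolar channel TIP1;1 stood at 1554 and 1940 RPKM in the controls, 1072 in narciclasine 2 h and 507 in narciclasine 12 h. TIP2;1, at 319 and 393 RPKM in the controls, reached 161 and then 3.91 in narciclasine, the most negative difference of the list (-3.66 ± 1.56, limma adjusted p = 0.634). The summed level of the 19 was 9905 and 12857 RPKM in the controls, 6597 in narciclasine 2 h and 3659 in narciclasine 12 h. PIP2;8, at 3.73 and 1.96 RPKM against 3.15 and 0.82, was the one member whose sides overlapped.

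Markers of the endodermis, root hair and xylem were lower in 50% to 66.7% of their tested genes, beside 19% of all genes. At 2 h their list medians were only -0.11, -0.11 and -0.04, and at 12 h they were -0.94, -1.13 and -0.68. No gap reached 2-fold, and the widest were 1.37-fold (CASP5), 1.69-fold (PRP1) and 1.11-fold (IRX1). Of 6 tested endodermis markers 4 were lower without overlap, 66.7%, and 0 higher, with a summed level of 786 and 885 RPKM in the controls and 758 and 432 in narciclasine. CASP5, a protein of the Casparian strip, had 57.5 and 69.7 RPKM against 41.6 and 2.84. Root hair genes were lower in 6 of 12, 50%, with sums of 936 and 984 RPKM against 798 and 388, and PRP1 had 132 and 121 against 71.3 and 17.9. Xylem markers were lower in 4 of 7, 57.1%, with sums of 201 and 219 against 204 and 134. Root cap markers gave 0 higher and 1 lower of 4, 25%, which is near the share of all genes, with sums of 48.5 and 34.2 against 39.1 and 27.3. Meristem genes gave 2 higher and 0 lower of 13, with sums of 221 and 165 against 291 and 170. Their higher share, 15.4%, was under the 25.5% of all genes. Phloem markers gave 1 each way of 4, 25%, near the shares of all genes, with sums of 23.4 and 22.6 against 29.7 and 15.9. The sums of the endodermis, root hair and xylem markers were lowest in narciclasine 12 h, and their part in the aquaporin and cell wall results was not tested.

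Genes of the photosynthetic shoot, which should be scarce in root tips, were lower in 6 of 8 tested, 75% against 19% of all genes. Their summed level was 33 and 80.2 RPKM in the controls and 23.6 and 16.1 in narciclasine, and RBCS1B and RBCS2B were at 0 throughout. LHCB1.3, a light-harvesting protein, had 6.98 and 17.9 RPKM against 3.16 and 1.89 (-1.83 ± 0.49, limma adjusted p = 0.634). The control 12 h library was the high one, and the part of this difference in other results was not tested.

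Cell wall enzymes were lower in 10 of 24, 41.7% against 19% of all genes, and higher in 2, 8.33% against 25.5%. XTH19, which cuts and rejoins xyloglucan, had 136 and 130 RPKM in the controls and 81.7 and 59.8 in narciclasine. XTH12 had 55.5 and 50.6 RPKM against 32.3 and 11.1. XTH22 and XTH23 of the same family went the other way, with 10.4 and 19 RPKM against 37.1 and 107 and with 17.6 and 28.7 against 79.4 and 44.7. The list median of -0.85 was -0.11 at 2 h and -1.33 at 12 h, and without the narciclasine 12 h library it was 0.03.

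**Figure D5:**
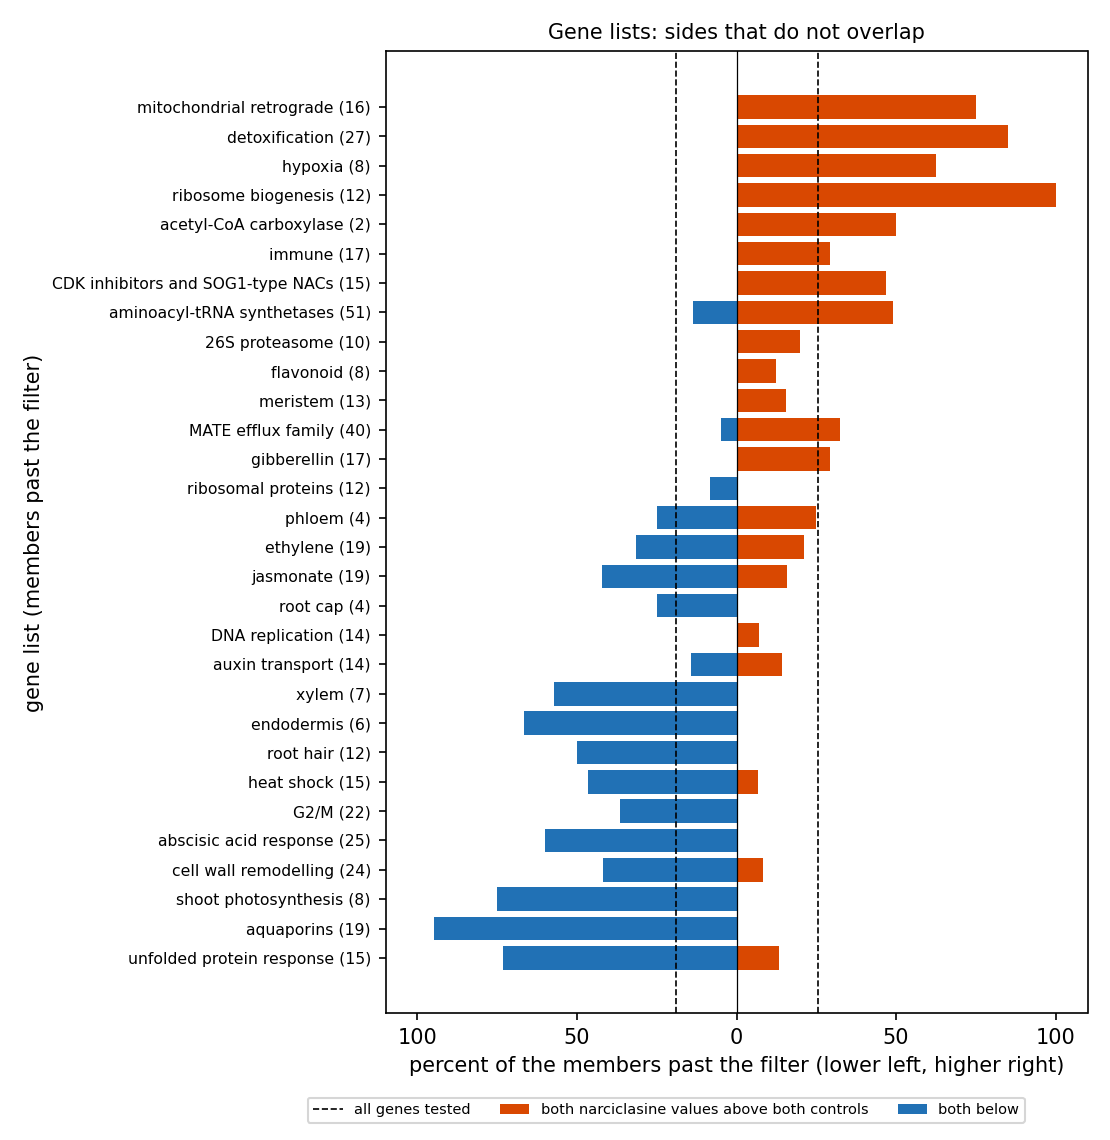
For each of 30 gene lists, with its number of tested genes in brackets, the bars give the percent of genes whose narciclasine values both lay above (orange, right) or both below (blue, left) both control values. The dashed lines mark the shares among all genes tested, 25.5% and 19%, and ribosome biogenesis and aquaporins lie farthest beyond them.

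Genes of other hormones were also listed. Of 17 gibberellin genes 5 were higher and 0 lower, 29.4% against 25.5% of all genes, and the list median of 0.02 became -0.03 when libraries were rescaled by trimmed means. GA2OX2, an enzyme that inactivates gibberellin, had 1.5 and 2.45 RPKM in the controls, 10.4 in narciclasine 2 h and 119 in narciclasine 12 h (3.65 ± 1.07, limma adjusted p = 0.634, 0.148 with time). GA2OX8, with the same activity, had 2.34 and 2.18 RPKM against 14.6 and 4.44. Auxin transport genes gave 2 higher and 2 lower of 14, 14.3% each way, below the 25.5% and 19% of all genes. ABCB4, an auxin transporter of root hairs and the root cap, had 118 and 131 RPKM against 561 and 472 (2.04 ± 0.27, limma adjusted p = 0.203, 0.106 with time). PIN4, an efflux carrier of the root tip, had 23.6 and 23.3 RPKM against 16.2 and 5.87. Ethylene genes gave 4 higher and 6 lower of 19, or 21.1% and 31.6%, against 25.5% and 19% of all genes. Jasmonate genes gave 3 higher and 8 lower of 19, or 15.8% and 42.1%.

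Of 17 tested immune genes, 5 were higher and 0 lower. The higher share was also 29.4%, against 25.5% of all genes. CYP81F2, a cytochrome P450 of indole glucosinolate synthesis, had 3.79 and 2.2 RPKM in the controls and 27.5 and 21 in narciclasine (2.68 ± 0.33, limma adjusted p = 0.167, 0.0366 with time). PAD3, the last enzyme of camalexin synthesis, had 7.42 and 6.64 RPKM against 14.9 and 66. WRKY33 and PROPEP3 had overlapping sides, with the control 12 h library at 151 and 41 RPKM. Proteasome genes gave 2 higher of 10, 20%, flavonoid genes 1 of 8, 12.5%, and the acetyl-CoA carboxylases 1 of 2, each with 0 lower. The proteasome and flavonoid shares were below the 25.5% of all genes that were higher. Rescaling by trimmed means or by median ratios gave 1, 0 and 0 higher in these lists. MYB12, a flavonol regulator, had 40.9 and 41.8 RPKM against 42.6 and 90.8.

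Among single genes lower by a wide gap, CYCP4;3, a P-type cyclin, had 7.75 and 11.7 RPKM in the controls and 2.36 and 2.38 in narciclasine (-1.64 ± 0.31, limma adjusted p = 0.48, 0.259 with time). CYP82F1, a cytochrome P450, had 71.9 and 101 RPKM against 30.7 and 32.9. ADS1, a fatty acid desaturase, had 10.3 and 12.2 RPKM against 4.03 and 2.89, and the annexin ANNAT3 29.6 and 38.4 against 12.9 and 6.81. NSP3, a nitrile specifier protein of glucosinolate breakdown, had 17.8 and 16.8 RPKM against 7.49 and 2.1. PROPEP5, a defence peptide precursor, had 1.82 and 1.62 RPKM from 11 and 8 reads, against 0 and 0.163 RPKM from 0 reads and 1 read. None of these was called by limma in either fit.

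At the edge of the 2-fold gap on the higher side, NUC-L2, a nucleolin, lay just inside at 1.15 and 1.08 RPKM against 3.31 and 29.3. EDA39 lay just outside at 8.32 and 14.2 against 33 and 29.3. On the lower side AGT was just inside, at 5.51 and 5.75 RPKM against 2.24 and 1.77, and TIP2;1 just outside.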

How the data were processed

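Per the labels, RNA sequencing libraries were made from root tips, 1 for each treatment and time. The deposited values are RPKM, computed by the authors, per the file headers. Bowtie 0.12.2, edgeR and the mouse build mm8 appear in the submitters' processing notes. The identifiers are Arabidopsis loci, so the build is unclear. No source used here gives the counting rule or the strand, which makes overlapping, antisense and near-identical genes uncertain. Names and sequence came from TAIR10.1, which held 32835 of the 33602 identifiers.

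The members and the 30 gene lists were chosen with earlier results of these data known. Genes of at least 1 RPKM in any library were tested on log2(RPKM + 1) with limma 3.58.1 (R 4.3.3, intensity trend), after tests on simulated data. p-values measure only the spread between these libraries. The time term pairs libraries by the labels' 2 h and 12 h. Across genes the 12 h minus 2 h differences of control and narciclasine correlated at r = 0.25. The genes named were the 12 protein-coding genes with a symbol and the widest gaps each way, up to 4 per list and those beside the 2-fold gap; others are named from the lists or after their values were seen. Reads per gene, recovered from ratios of RPKM values, only describe depth. Intervals cover counting error only.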

Additional observations from a re-analysis of the deposited data

Results flagged for a closer look

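In 10 of the 30 lists the median difference, on the log2(RPKM + 1) scale, had opposite signs at 2 h and 12 h, which the pooled value does not show. Some of these medians lay near 0, such as -0.01 for immune genes at 12 h and 0.06 for auxin transport at 2 h. The medians of all genes were 0.03 at 2 h and 0.01 at 12 h. A sign so near 0 does not show a change of direction, and the acetyl-CoA carboxylase list holds only 2 genes. With 1 library for each treatment and time, the difference between the times was not tested.

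Medians above 0 at 2 h and below 0 at 12 h were found for gibberellin (0.19 and -0.30), auxin transport (0.06 and -0.66) and DNA replication (0.17 and -0.82). The same order was found for immune (0.92 and -0.01), meristem (0.42 and -0.10) and phloem genes (0.16 and -0.52). The reverse order was seen for flavonoid genes (-0.58 and 1.14), ribosomal proteins (-0.32 and 0.30), the 26S proteasome (-0.06 and 0.63) and acetyl-CoA carboxylase (-0.22 and 1.80).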

How the results depend on the processing

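Against 3 genes called higher by limma, no filter gave 0 and an adjusted p of at most 0.1 gave 11. The replicate block, which pairs libraries by time, gave 47 higher and 1 lower against 0 lower. Leaving out 1 library gave 0 to 623 called higher and 0 to 1002 called lower, with the lone library of a side assumed to vary like the other side. It gave 6842 to 8227 genes without overlap on the higher side and 5547 to 8027 on the lower side, since fewer libraries make separation easier. The 199 genes with a wide gap on the higher side became 319 with a pseudocount of 0.1, 639 at a 1.5-fold gap, 57 at a 4-fold gap and 345 to 1225 with 1 library left out. The 36 on the lower side became 103 and 72 with pseudocounts of 0.1 and 0.5, 240 at 1.5-fold, 0 at 4-fold and 85 to 1706 with 1 library left out, and lower genes outnumbered higher ones without the narciclasine 2 h library. The cause of the pseudocount shifts was not tested.

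The 20.4% of promoters with the mitochondrial dysfunction motif became 14.5% with a pseudocount of 0.1, 8.32% at a 1.5-fold gap, 41.1% at a 4-fold gap and 5.27% to 13% with 1 library left out. At a 4-fold gap TGACG was in 37.5%, AACGG in 16.1% and GAANNTTC in 23.2%, and at a 1.5-fold gap AACCCTA was in 12.6%. With 1 library left out, AACCCTA was in 5.92% to 14.5% on the higher side and AACGG in 15.2% to 32.9% on the lower side. Of 1426 alternative values for the named genes, none reversed, 83 newly passed the threshold and 1343 stayed on their side of it. None of these genes passed it in the main fit, so none could lose a call, and the 1343 were still not called. Of 300 alternative list medians 14 changed sign, 2 of them by rescaling, both for gibberellin.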

Other observations

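Protein families grouped by product name, chosen after the values were seen, are given beside the 25.5% of all genes that were higher and the 19% that were lower. Of 9 tested proteins of the SPFH or band 7 family, 5 were higher without overlap, 55.6%, and 0 lower, and 3 had a gap of at least 2-fold. AT5G54100 had 22.9 and 20.8 RPKM in control 2 h and 12 h and 118 and 104 RPKM in narciclasine 2 h and 12 h, and AT4G27585 had 24.2 and 23.4 against 79.7 and 91.9. Of 5 tested vacuolar iron transporter family genes 2 were higher, both by a wide gap. These were AT1G21140, with 7.11 and 8.8 RPKM against 26.9 and 56.3, and AT1G76800, with 4.04 and 6.33 against 22.8 and 20.9. WRKY factors gave 25 higher and 1 lower of 55, or 45.5% and 1.82%. NAC factors gave 22 higher and 4 lower of 68, or 32.4% and 5.88%. Cytochrome P450 genes gave 21 higher and 29 lower of 128, or 16.4% and 22.7%.

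Among the 196 coding genes with a wide gap on the higher side, 24 formed 12 pairs of direct neighbours, and 8 pairs lay on one strand. In 3 pairs both genes had the same product name, and 1 pair had overlapping spans, so shared reads may add to the likeness. On the lower side the 29 coding genes held 0 such pairs. Noncoding genes with a wide gap on the lower side included MIR169a, at 3.6 and 5.73 RPKM against 0.735 and 0.711.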
